A study of Mus musculus with 36 samples.

Results

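Sustained depolarisation of cultured mouse cortical neurons was followed in 7 RNA-seq libraries, 3 from neurons held in KCl for 6 h and 4 from neurons that were silenced for the same time and given no KCl. They were taken by their titles from the 36 libraries of the series, 24 of which are RNA-seq. Neurons of both groups were wild type, came from the cortex of mouse embryos at E16.5 (days of gestation) and were grown for 7 days in vitro. Both groups had TTX, a blocker of voltage-gated sodium channels, and APV, a blocker of NMDA-type glutamate receptors, for 7 h. The KCl group also had KCl for 6 h, so the groups differed in KCl and not in the time spent with the blockers. The concentrations are not given in the sources used here.

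Each library carries a code. The KCl libraries have codes 3-7, 4-2 and 4-4, and the controls have these and 3-4. The series describes its wild-type samples as biological replicates, but what a code stands for is not in the labels, so the p-values measure the spread between these libraries, which may be technical. Levels are counts scaled to a common library size (CPM), computed from the deposited estimated counts. The controls held 3569516 to 4020984 estimated counts and the KCl libraries 3627450 to 4051922. The remaining wild-type libraries, used for comparison at an earlier time, were deeper, with 5873349 to 7578714 after 2 h of TTX and APV and 6902985 to 8015063 after 2 h of blockers with 1 h of KCl. None of the 115270 transcript identifiers could be paired with a gene name from the tables used here (0 matched). Markers of neurons and other cell types, and lists of activity-regulated genes, were therefore not analysed here, and transcripts are described by their length and level.

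Raised extracellular potassium depolarises a neuron's membrane and opens voltage-gated calcium channels, and the calcium that enters starts signalling to the nucleus. As background, the transcription that follows is usually described in stages. Early response genes, many of them for transcription factors such as Fos and Npas4, are induced without new protein synthesis. Late response genes, many of them for secreted factors, channels and synaptic proteins such as Bdnf, follow over hours and depend in part on the early factors. Blocking sodium channels and NMDA receptors beforehand lowers spontaneous firing and synaptic input, so that the controls start from a quiet state. Libraries made from whole cultures do not separate fewer cells of a type from less RNA per cell.

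The question asked of the 7 libraries was which transcripts differ after 6 h of depolarisation. Of 33196 transcripts with enough counts to test, 5091 (15.3%) differed at an adjusted p under 0.05 in edgeR's quasi-likelihood F-test. After KCl 2808 (8.46%) were higher and 2283 (6.88%) were lower. These counts moved by more than 1.5 times with the model and the libraries: 610 and 202 with the code as a block, 1663 and 1391 without KCl library 3-7, 1720 and 1335 without KCl library 4-2, 1410 lower without control 3-4, and 3798 lower by DESeq2. On the log2 scale the higher transcripts had a median change of 1.11 and the lower ones of -1.32, against -0.03 over all tested. Changes of at least 2-fold were made by 1607 of the higher (4.84% of those tested) and 1593 of the lower (4.8%). At 4-fold or more (a log2 fold change of 2) there were 491 and 518, and at 8-fold or more (3) there were 190 and 224. At an adjusted p under 0.001, 159 transcripts remained, 133 of them higher. With libraries scaled by their total count alone, 1934 transcripts were higher and 3373 lower, so that 36.4% of the calls were higher in place of 55.2%, and the median over all tested moved to -0.23. Counts of higher against lower transcripts below are on the TMM scale and shift with that choice.

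**Figure D1:**
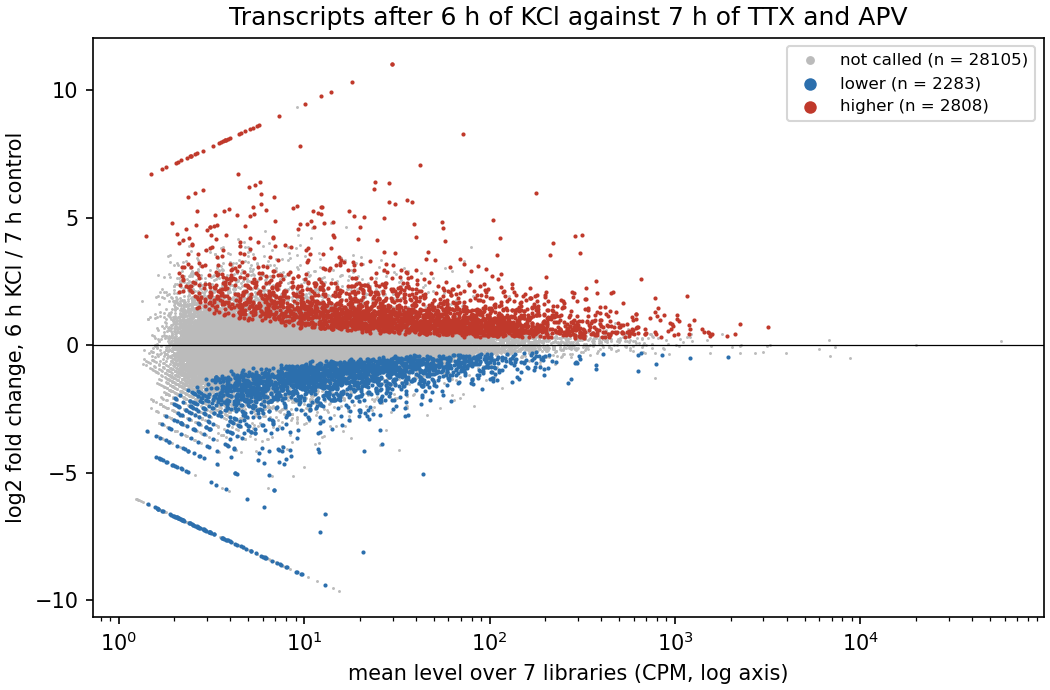
Each point is a transcript, with its mean level over the 7 libraries in CPM (log axis) and its log2 fold change, 6 h KCl over 7 h control, where 0 is no change. Of 33196 points, 2808 were called higher and 2283 lower, and the stripes at low levels and large changes include transcripts at 0 in a whole group, whose fitted change depends on the prior count.

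The values of the called transcripts were separated library by library. In 5089 of the 5091 called transcripts the log2 CPM values of the groups did not overlap, a property of 32.1% of all tested transcripts. For the 3 codes present on both sides, the difference between the KCl and the control library had the sign of the fold change in all 3 for 2808 of 2808 higher and 2283 of 2283 lower transcripts, while 52.6% of all tested transcripts had the same sign in all 3. The median difference in log2 CPM among the higher transcripts was 1.13 in code 3-7, 1.12 in code 4-2 and 0.951 in code 4-4. Among the lower ones it was -1.25, -1.26 and -1.14 in the same order. These counts follow from the calls, which used the same libraries, and are given as a description. Within codes 4-2 and 4-4 alone, which leave 2 libraries a group, edgeR called 0 transcripts higher and 0 lower. There the smallest adjusted p was 0.0976, 6553 transcripts had an unadjusted p under 0.05, and DESeq2 called 2422 higher and 1546 lower. In those 4 libraries 2802 of the 2802 higher transcripts that could be tested lay above 0 and 2235 of the 2235 lower ones below it, with medians of 1.08 and -1.26. These libraries were among those that made the calls, so this agreement also follows from the calls and is no separate support.

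The transcripts that rose held a large part of each library. They took 17.3% to 17.9% of the estimated counts in the 4 controls and 28.2% to 29.6% in the 3 KCl libraries. The transcripts that fell took 7.84% to 8.25% in the controls and 3.48% to 3.98% after KCl. Both are shares of raw counts of transcripts that were chosen on these values. For the transcripts called with total count scaling, the shares were 11% to 11.2% in the controls and 19.9% to 21.5% after KCl for rises, and 14.8% to 15.2% and 8.1% to 8.47% for falls. The gain was spread over many transcripts, and the 10 with the largest gain in CPM made up 6.72% of the summed gain of the higher transcripts.

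The transcripts with the largest rise, among those seen with at least 5 estimated counts in every library and a mean of at least 10 CPM, went from a low to a high level. ENSMUST00000022075.5, of 5040 bases, had 4.13, 5.81, 6.84 and 9.23 CPM in controls 3-4, 3-7, 4-2 and 4-4. In KCl libraries 3-7, 4-2 and 4-4 it had 504, 419 and 303 CPM. Every KCl library was far above every control, and the log2 fold change was 5.97 (SE 0.294, edgeR adjusted p = 0.000465), or 62.7-fold. ENSMUST00000071782.7, of 2536 bases, had 7.05, 9.77, 7.09 and 7.12 CPM in the controls and 299, 251 and 147 CPM after KCl, in the same order. Its groups did not overlap, and it rose by a log2 change of 4.90 (SE 0.280; adjusted p in edgeR = 0.00051).

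Another 8 transcripts complete the 10 largest rises. Their lengths were 5788, 3277, 5068, 2317, 2088, 6537, 5720 and 4268 bases, and their log2 fold changes ran from 4.81 down to 3.81, with adjusted p from 0.000465 to 0.00306 in edgeR. With the code as a block the transcripts of 3277 and 2317 bases missed the threshold, at adjusted p of 0.055 and 0.0673. The level they reached differed widely. Per length, in TPM (the deposited values, scaled by transcript length), the transcript of 2317 bases went from a mean of 21.7 to 359, the transcript of 5068 bases from 9.4 to 171 and the transcript of 4268 bases from 0.679 to 8.78. The transcript of 2317 bases was also the most uneven among controls, at 24.3, 11.1, 46.0 and 49.1 CPM, and had 698, 732 and 455 CPM after KCl. Its controls varied and still lay far below each KCl library, with a log2 change of 4.27 (SE 0.496; adjusted p in edgeR = 0.00306). Of 23 rises tied at the smallest adjusted p, the one with the smallest unadjusted p was a transcript of 3706 bases with 16.3, 13.2, 13.2 and 12.9 CPM in the controls and 145, 154 and 131 CPM after KCl. Its values were tight in both groups, and the log2 fold change was 3.36 (SE 0.124, edgeR adjusted p = 0.000465).

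**Figure D2:**
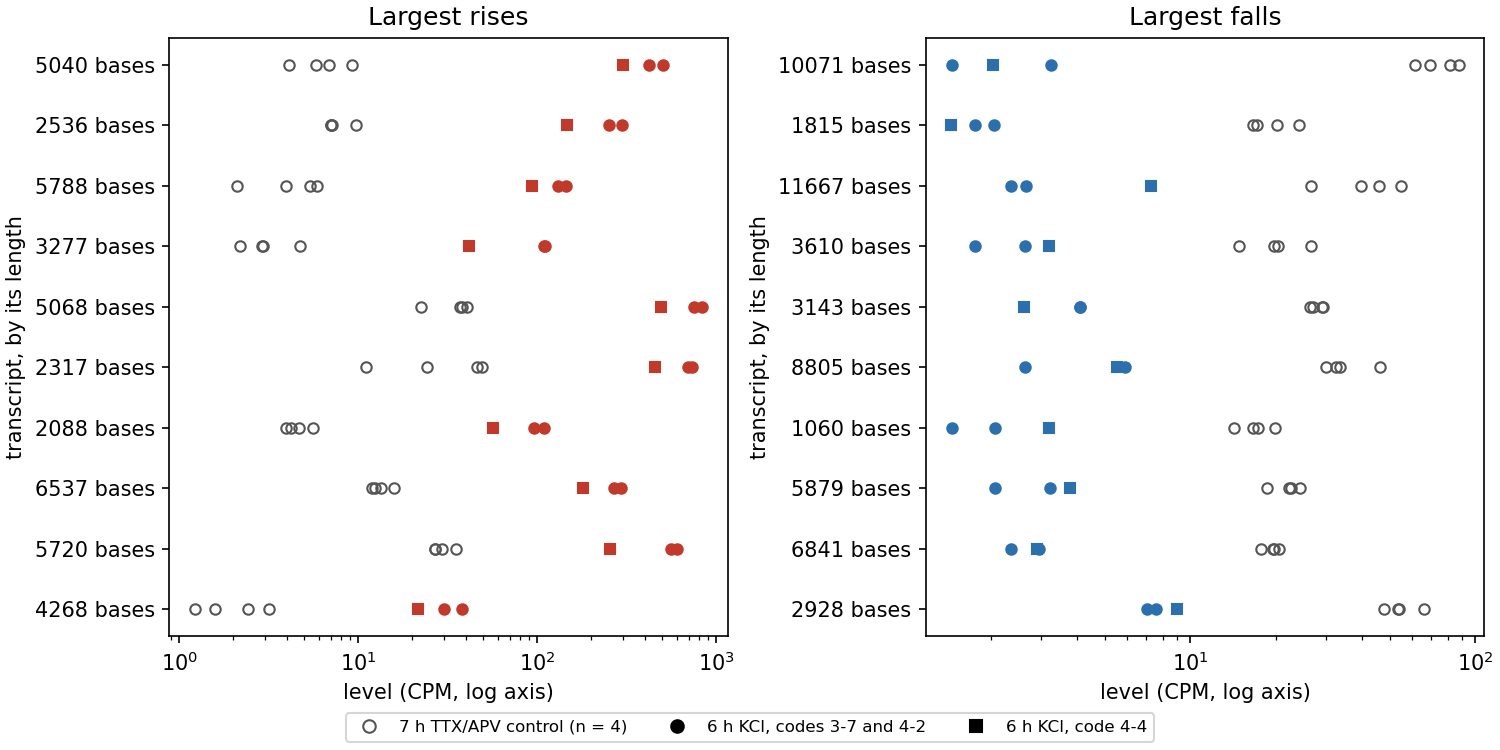
Each row is a transcript, named by its length in bases, and each point its level in 1 library in CPM (log axis), with the 4 controls and the 3 KCl libraries in separate colours. The rises on one side and the falls on the other were chosen as transcripts with no overlap between groups, and the top rise goes from 4.13 to 9.23 CPM in the controls to 303 to 504 CPM after KCl.

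By the same rule, the 10 largest falls ran from -5.04 to -2.80 on the log2 scale, where the 10 largest rises ran from 5.97 to 3.81. The rule asks for counts in every library, and this order does not hold without it. Over all calls, 143 lower and 122 higher transcripts changed by at least 4 log2 units, and 89 and 47 by at least 6. ENSMUST00000065263.11, of 10071 bases, had 61.3, 69.2, 87.5 and 81.5 CPM in controls 3-4, 3-7, 4-2 and 4-4 and 1.46, 3.23 and 2.03 CPM in KCl libraries 3-7, 4-2 and 4-4. Each KCl library was at a small share of each control, and the log2 fold change was -5.04 (SE 0.283, edgeR adjusted p = 0.000465), a level 33.0-fold lower. ENSMUST00000119987.1, of 1815 bases, had 20.2, 16.6, 17.1 and 24 CPM in the controls and 2.05, 1.76 and 1.45 CPM after KCl. It fell by 3.45 on the log2 scale (SE 0.252, edgeR adjusted p = 0.00066), again with no overlap.

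The other 8 of the 10 largest falls were of 11667, 3610, 3143, 8805, 1060, 5879, 6841 and 2928 bases. Their log2 fold changes ran from -3.34 to -2.80, with edgeR adjusted p from 0.00051 to 0.00562. The transcript of 1060 bases missed the threshold with the code as a block (adjusted p = 0.0584). The transcript of 11667 bases varied most: it had 26.5, 39.6, 46.0 and 54.9 CPM in the controls and 2.34, 2.64 and 7.25 CPM after KCl. The transcript of 6841 bases varied little, at 20.4, 17.7, 19.6 and 19.5 CPM in the controls and 2.34, 2.94 and 2.90 CPM after KCl. The fall with the smallest unadjusted p, tied in adjusted p with that of 10071 bases, was a transcript of 3988 bases, with 105, 91.4, 89.5 and 87.3 CPM in the controls and 19.3, 19.7 and 22.3 CPM after KCl. Both groups were tight, and it fell by 2.19 on the log2 scale (SE 0.120, edgeR adjusted p = 0.000465).

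Some transcripts appeared in one group only. Of the higher transcripts, 36 were at 0 in all 4 controls, and of the lower ones 84 were at 0 in all 3 KCl libraries. Here 0 means a deposited estimated count that rounds to 0, as the whole-number counts were used. Over all tested transcripts 37 were at 0 in all controls and 169 in all KCl libraries, with 3 libraries in the KCl group and 4 in the control group. Such transcripts passed the filter on low counts only through the group where they were present, so their number is a description. The examples that follow were chosen after their values were seen. A transcript of 3782 bases had 57.6, 44.1 and 25.2 CPM after KCl and 0 in the controls. With a floor of 0.190 CPM, which is 3 counts over the control group, it was at least 222-fold higher. A pair of transcripts, both of 8609 bases, had 115, 51.4 and 43.2 CPM after KCl in KCl libraries 3-7, 4-2 and 4-4 and 0 in the controls, at least 367-fold higher. Their values were identical in every library, so the pair holds 1 measurement. In the other direction a transcript of 2827 bases had 20.9, 10.8, 25.9 and 33.0 CPM in the controls and 0 after KCl. With a floor of 0.292 CPM, 3 counts over the KCl group, it was at least 77.6-fold lower. A 0 can also arise when reads are assigned to another isoform of the same gene, and floors cover counting error only.

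Measured in CPM gained, the largest changes were in abundant transcripts, listed here after their values were seen. A transcript of 3215 bases went from 2490 ± 153 CPM (SD, n = 4) to 4080 ± 256 CPM (SD, n = 3), a log2 fold change of 0.71. A transcript of 14814 bases rose from 212, 236, 181 and 212 CPM in the controls to 1380, 1340 and 1050 CPM after KCl, a log2 change of 2.58 (SE 0.131; adjusted p in edgeR = 0.000465). A transcript of 11040 bases fell from 807 ± 50.1 CPM (SD, n = 4) to 394 ± 15.2 CPM (SD, n = 3), a log2 fold change of -1.04. The most abundant transcript of all, of 449 bases, was at 54000 ± 16600 CPM in the controls (SD, n = 4) and 61000 ± 15700 CPM after KCl (SD, n = 3). It ranged from 37300 to 75300 CPM among the controls alone, and its difference did not pass the test (edgeR adjusted p = 0.729).

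The share of transcripts called rose with level and, over all levels together, with length. The tested transcripts were divided into 5 equal classes by mean CPM. In the lowest class, 1.25 to 3.69 CPM, 1.99% were higher and 3.52% lower, and in the highest, from 27 CPM up, 23.6% were higher and 9.04% lower. The median standard error of the log2 fold change went from 0.634 in the lowest class to 0.159 in the highest, so smaller changes could be called in abundant transcripts. The median change among the higher calls was accordingly 2.64 in the lowest class and 0.867 in the highest. With scaling by total count alone, the highest class had 16.2% higher and 14.3% lower, and the lowest 1.51% and 4.88%. By length, 5.41% of transcripts under 1 kb were higher and 2.79% lower, while of 1202 transcripts of 8 kb or longer 18% (216) were higher and 10.8% (130) lower. By total count scaling the longest class had 12.8% higher and 16% lower, so its balance of directions turned with the scaling. Long transcripts are also the more abundant ones in counts, and within the highest level class 24.7% of those under 4 kb and 22.8% of those of 4 kb or longer were higher. Lower calls in that class were made for 6.22% of the shorter and 11.3% of the longer ones. In the class of 11.8 to 27 CPM, 10.1% of the shorter and 6.7% of the longer ones were higher, and 8.02% and 11.5% lower. From the lowest class up, the classes below had 1.85%, 2.97% and 4.71% of the shorter ones higher and 3.35%, 3.18% and 4.45% of the longer ones. The rise of higher calls with length was thus not seen within the upper classes.

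**Figure D3:**
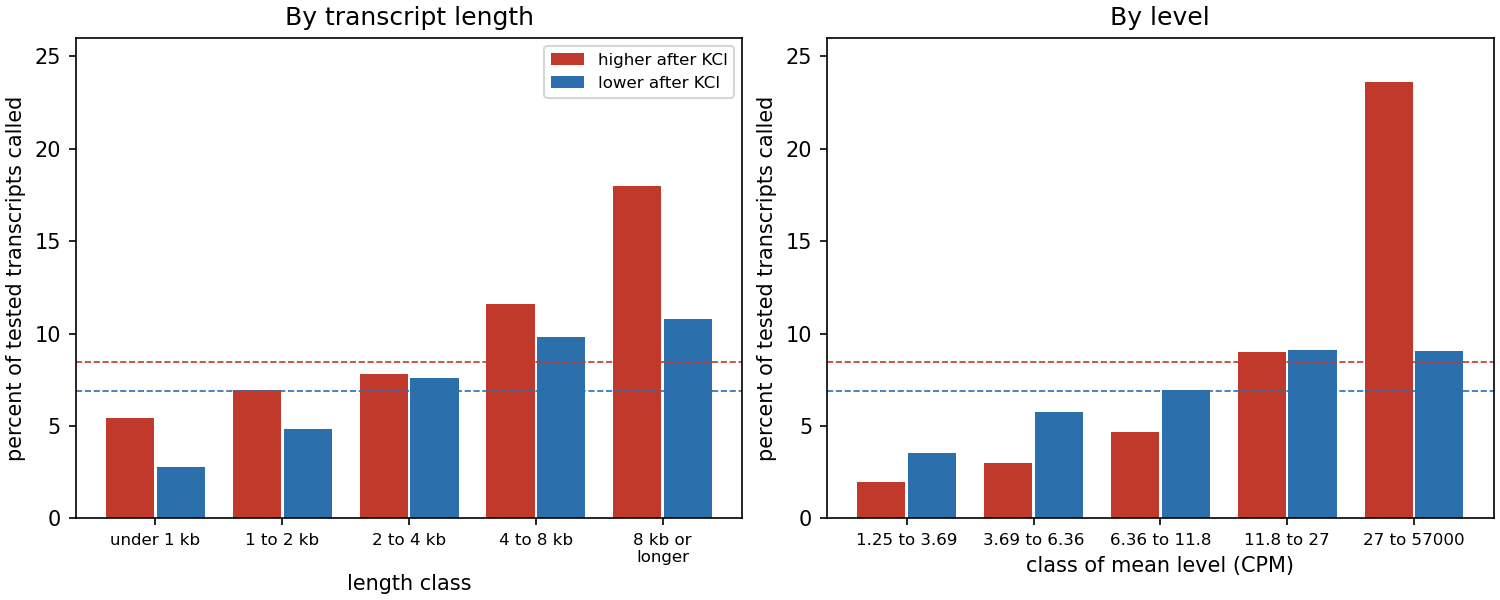
Bars give the percent of tested transcripts called higher and lower after 6 h of KCl in classes of transcript length and in 5 equal classes of mean level, with the axis starting at 0. The percent higher climbs from 1.99% in the lowest level class to 23.6% in the highest.

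The composition of the libraries also differed between the groups. Transcripts of 4 kb or longer took 45.245%, 43.461%, 44.614% and 45.499% of the counts in controls 3-4, 3-7, 4-2 and 4-4 and 46.073%, 46.614% and 47.268% in KCl libraries 3-7, 4-2 and 4-4. Each KCl library was above each control, with a mean difference of 1.947 percentage points (two-sided exact permutation test over 35 splits, p = 0.0286, the smallest this design allows, and 0.0429 adjusted over 3 measures). The difference of 2.066 points for transcripts of 2 kb or longer and that of 0.9729 for 8 kb or longer missed the threshold, at adjusted p of 0.214 and 0.0857. Fewer transcripts reached 1 CPM after KCl. Their number was 43410 ± 830 in the controls (SD, n = 4) and 40150 ± 1050 after KCl (SD, n = 3; exact permutation p = 0.0286, adjusted 0.0429), with no overlap. This count used scaling by total count alone, without the TMM factors of 1.01 to 1.1 in the controls and 0.868 to 0.98 after KCl. The number on the TMM scale was not computed, and the difference can shift with that choice. The 100 most abundant transcripts of a library took 22.16% ± 2.08 of its counts in the controls (SD, n = 4) and 21.64% ± 1.61 after KCl (SD, n = 3; exact permutation p = 0.743), a difference smaller than the spread.

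One KCl library lay closest to the controls in many of the called transcripts. KCl library 4-4 was the lowest of the 3 KCl libraries in 11 of the 11 rises named above and in 56.9% of the 2808 higher transcripts, against 17.3% for 3-7 and 25.8% for 4-2. Among transcripts not called it was lowest in 31.9%. Among the 2283 lower transcripts it was the highest of the 3 in 41.4%, against 32.5% for 3-7 and 26.1% for 4-2. In the 11 falls named above it was the highest of the 3 in 6 and the lowest in 2. The control of code 4-4 showed no such place: it was the highest control in 24.4% of the higher transcripts. KCl library 4-4 also had the highest share of counts in transcripts of 4 kb or longer (47.268%) and the most transcripts at 1 CPM or more of the 3 (41229), and the part of these in its place was not tested. Without KCl library 4-4 the higher calls numbered 2253 and the lower calls 1791.

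**Figure D4:**
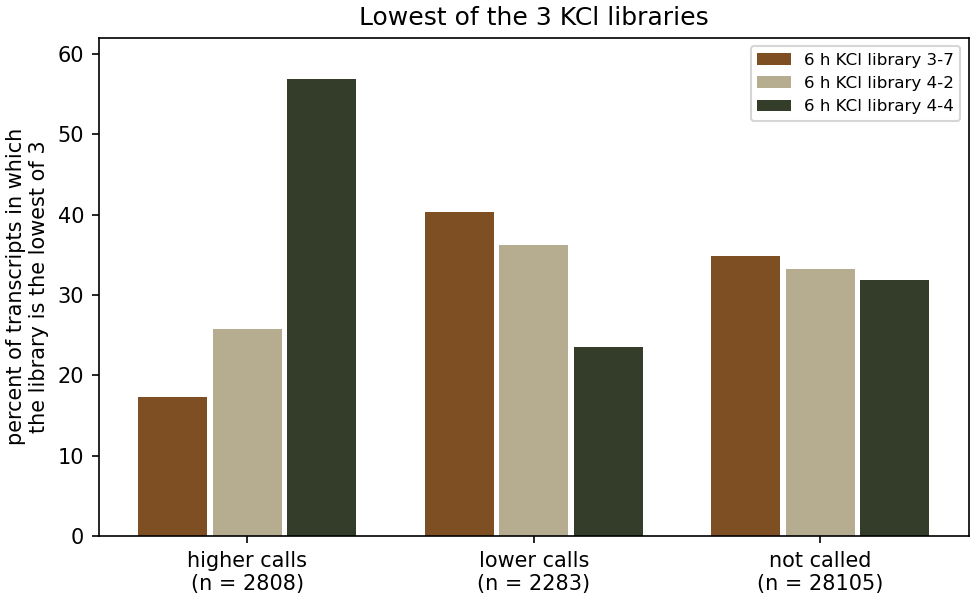
Bars give the percent of transcripts in which each of the 3 KCl libraries has the lowest level of the 3, for transcripts called higher, called lower and not called. Library 4-4 is lowest in 56.9% of the higher calls and in 31.9% of those not called.

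The 6 h response was set beside that to 1 h of KCl, tested against 2 h of TTX and APV in 5 libraries a group. At 1 h 1438 of 31673 transcripts tested (4.54%) differed, 806 higher (2.54%) and 632 lower (2%). Of the 2808 transcripts higher at 6 h, 2576 could be tested at 1 h, where 309 (12%) were higher and 13 lower. Of the 2283 lower at 6 h, 2006 could be tested, and 177 (8.82%) were lower and 11 higher. The share already higher at 1 h climbed with the size of the rise at 6 h, from 8.17% of those under 2-fold to 23.2% of those of 8-fold or more (26 of 112). For falls it was 8.73% of those under 2-fold, 9.18% from 2-fold to 4-fold, 11.2% from 4-fold to 8-fold and 2.96% of those of 8-fold or more (4 of 135), a class with a median level of 3.5 CPM. With the code as a block in the 1 h fit, 436 transcripts were higher and 220 lower at 1 h, among them 217 of those higher and 79 of those lower at 6 h. The depth and the number of libraries differed between the times, so a transcript not called at 1 h was not shown to be unchanged.

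Whether the responses at 6 h and 1 h differ was therefore tested directly, as an interaction contrast over the wild-type RNA-seq libraries, and it was called for 4052 of 46790 transcripts (8.66%). Of the 20 transcripts named above for their fold change at 6 h, 19 had a called difference, although these were chosen on libraries that enter the contrast. Of 9 such rises tested at 1 h, 3 were higher then, those of 5040, 3277 and 6537 bases. With the code as a block, the transcript of 5040 bases missed the threshold at 1 h (edgeR adjusted p = 0.0542). The transcripts of 2317, 5068 and 5720 bases, not called at 1 h in either fit (edgeR adjusted p = 0.194, 0.0567 and 0.163 with the block), were higher after 1 h of KCl in 5 of 5 codes. So were the rise of 3706 bases and the fall of 10071 bases, also not called. The rises of 5788 and 2088 bases were higher in 4 codes and that of 2536 bases in 1. Among the falls, that of 1060 bases was higher after 1 h of KCl in 0 of 5 codes and those of 3143, 8805 and 2928 bases in 1. The fall of 5879 bases was higher in 2 codes, that of 3610 bases in 3 and those of 1815 and 3988 bases in 4. The share of all tested transcripts with 5 of 5 or 0 of 5 was not computed, so these counts are a description. The 8 falls tested at 1 h had adjusted p from 0.0817 to 0.938 in edgeR.

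Levels over the 4 wild-type groups, scaled together, took several shapes. The transcript of 5040 bases was higher after KCl at both times: it was at 5.15 to 39.0 CPM at rest, meaning 2 h of blockers (median 9.31), and at 50.5 to 93.8 after 1 h of KCl (median 78.4). It reached 343 ± 82.5 CPM after 6 h (SD, n = 3) from 5.41 ± 1.77 in the 7 h control (SD, n = 4). Its response at 6 h exceeded that at 1 h by 3.67 on the log2 scale (SE 0.689, edgeR adjusted p = 0.00321). The transcript of 2536 bases was called higher at 6 h and not at 1 h. It had 13.0 to 34.1 CPM at rest and 11.2 to 22.9 CPM after 1 h of KCl, which overlap (log2 fold change -0.31, edgeR adjusted p = 0.685). Its 7 h controls, at 5.84 to 8.17 CPM, lay below every resting library, and 6 h of KCl took it to 124 to 248 CPM. Its responses differed by 5.20 (SE 0.428, edgeR adjusted p = 4.93e-06), a value into which the lower 7 h control also enters.

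The transcript of 3277 bases rose early and was lower by 6 h. At rest it had 1.33 to 2.94 CPM and after 1 h of KCl 142 to 208 CPM, a log2 change of 6.30 (SE 0.192; adjusted p in edgeR = 1.19e-07). After 6 h it had 91.9, 91.6 and 35.2 CPM in KCl libraries 3-7, 4-2 and 4-4, each below all 5 of the 1 h libraries and above all 4 controls at 1.82 to 3.95 CPM. Its 6 h response was smaller than its 1 h response by a log2 difference of -1.54 (SE 0.448, edgeR adjusted p = 0.0445, and 0.0587 with the code as a block), and it was the only one of the 10 named rises with a negative difference. The transcript of 5068 bases reached like levels at both times, 462 to 842 CPM after 1 h and 416 to 694 CPM after 6 h, from unlike controls. Its controls held 83.3 to 510 CPM at 2 h of blockers and 18.7 to 33.2 CPM at 7 h, and they did not overlap. The transcript of 5720 bases did the same, with 92.1 to 358 CPM at 2 h of blockers and 22.1 to 29.2 CPM at 7 h.

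The largest fall at 6 h had a difference of the opposite sign at 1 h. The transcript of 10071 bases had 2.32 to 67.5 CPM at rest and 76.0 to 172 CPM after 1 h of KCl, which do not overlap, but the log2 fold change of 2.38 (SE 0.742) did not pass the test at 1 h (edgeR adjusted p = 0.123). In the 7 h controls it had 62.2 ± 9.53 CPM (SD, n = 4) and after 6 h of KCl 1.88 ± 0.769 CPM (SD, n = 3). Its responses differed by -7.44 (SE 1.18, edgeR adjusted p = 0.000885). The transcript of 1815 bases stayed between 11 and 20 CPM in the other 3 groups and was at 1.22 to 1.70 CPM after 6 h of KCl.

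Other falls at 6 h had a 7 h control that stood above rest. The transcript of 3988 bases had 10.7 to 16.1 CPM at rest, 12.6 to 16.1 CPM after 1 h of KCl, 72.7 to 87.3 CPM after 7 h of blockers and 16.0 to 18.8 CPM after 6 h of KCl. Its 7 h controls were the group apart, and its level after 6 h of KCl was near that at rest. The transcript of 6841 bases had 0.619 to 2.42 CPM at rest, 14.8 to 17 CPM in the 7 h controls and 1.94 to 2.48 CPM after 6 h of KCl. The transcript of 11667 bases had 0 to 4.85 CPM at rest, 22.1 to 45.7 CPM in the 7 h controls and 1.94 to 6.10 CPM after 6 h of KCl, and its difference between the responses missed the threshold (-3.38, SE 1.17, edgeR adjusted p = 0.0932). Differences between the 7 h and the 2 h controls are given as values with no test, and the time in blockers and the depth of the libraries cannot be told apart there.

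**Figure D5:**
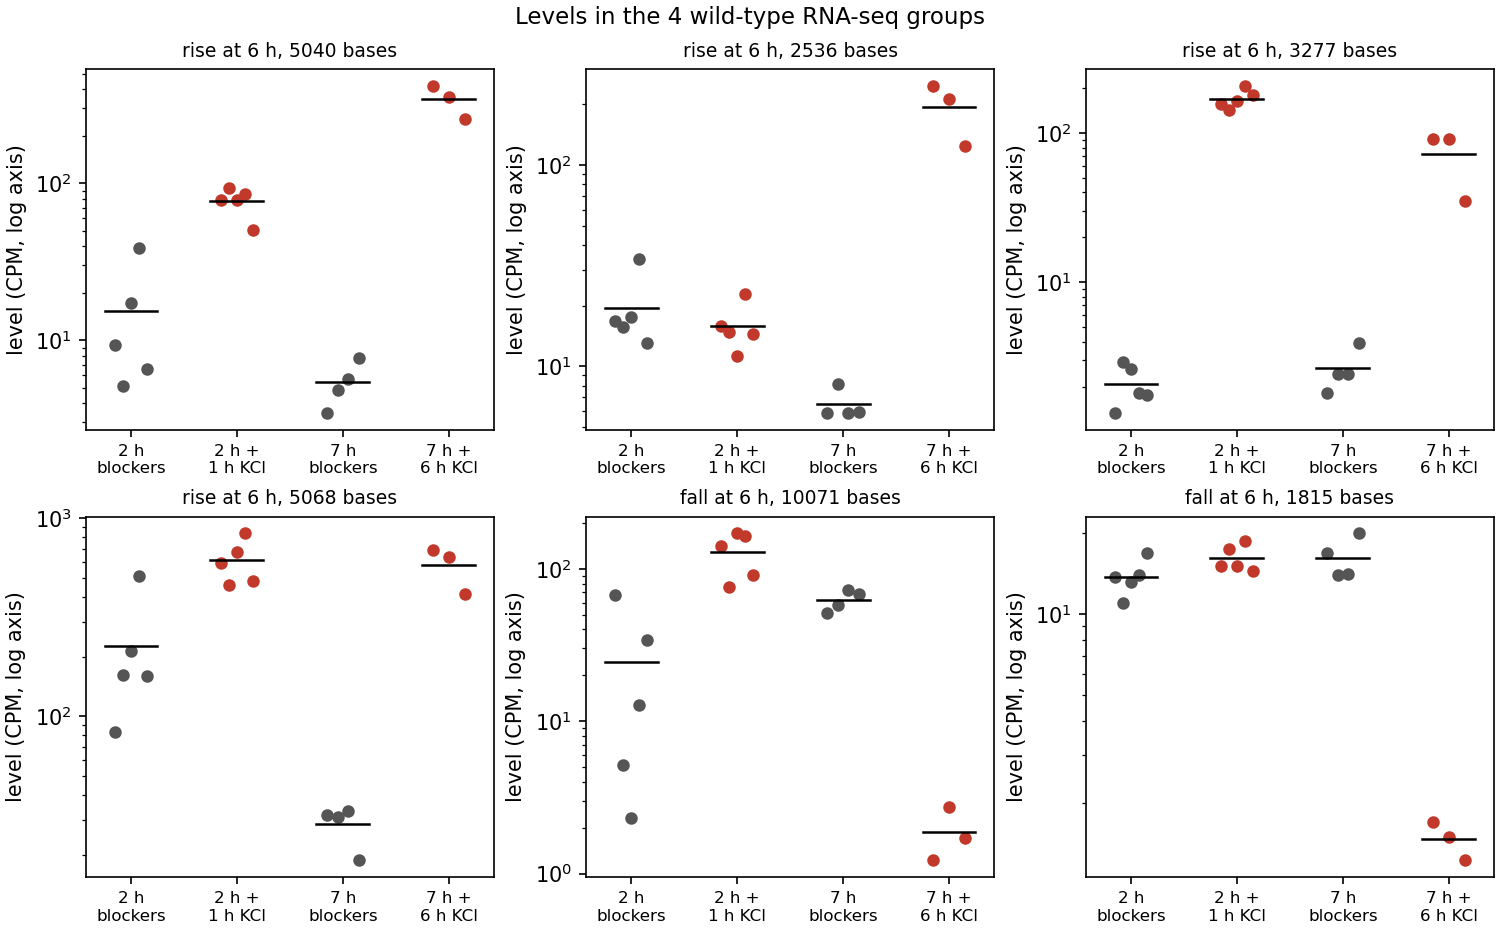
Each panel is a transcript, named by its length in bases and its direction at 6 h, each point its level in 1 library in CPM (log axis) and each line the mean of a group, for 2 h of blockers, 2 h with 1 h of KCl, 7 h of blockers and 7 h with 6 h of KCl. The transcript of 3277 bases is highest after 1 h of KCl (142 to 208 CPM), the one of 2536 bases after 6 h (124 to 248 CPM), and the one of 10071 bases is high after 1 h and at 1.22 to 2.72 CPM after 6 h.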

How the data were processed

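RNA was sequenced from stranded total RNA libraries, per the labels' protocols. The submitters' processing notes name Trim Galore and kallisto 0.44.0 for this series, with no further settings. The authors deposited, per the file headers, an estimated count, TPM, length and effective length for each transcript and library. For the transcriptome no build is named on its own, and the notes list mm9 and mm10.

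From the deposited estimated counts, rounded to whole numbers, 6 h KCl was tested against 7 h TTX and APV with edgeR 4.0.16 in R 4.3.3: TMM scaling, filterByExpr by group, a robust quasi-likelihood F-test, and Benjamini-Hochberg adjustment over all transcripts tested at 0.05. SE is the absolute log2 fold change divided by the root of F. CPM used TMM-scaled library sizes, except in the number of transcripts at 1 CPM or more, which used total estimated counts. Overlap was judged on log2 CPM with a prior count of 2. The deposited TPM were averaged per group only to compare levels between transcripts. The scripts were tested on simulated data. The 1 h comparison had its own fit, and the difference of the responses a fit of the 4 wild-type groups.

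Named transcripts had an adjusted p under 0.05, no overlap, a mean of at least 10 CPM and at least 5 counts in every library. The 10 with the largest fold change per direction were taken, plus the one with the smallest adjusted p (ties broken by the unadjusted p), and 2 identifiers per direction are printed. Of the tested transcripts, 599 (1.8%) share identical values with another, in 298 sets. The members and lists were chosen with earlier results of these data known. Gene lists that need symbols, the ATAC-seq data and knockout samples were not analysed here. Alternatives were DESeq2 1.42.0, other scalings and filters, a fit of all 24 RNA libraries, an offset for effective length, the code as a block, its first number as a covariate or fixed at 4, and leaving out each library. The comparison of the 3 shared codes without a block, the block in the 1 h and difference fits, and the removal of identical transcripts were added after seeing the data.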

Additional observations from a re-analysis of the deposited data

Results flagged for a closer look

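In 25 groups of 4 control libraries examined (22 transcripts and 3 library measures), 2 held a library that stood apart by Dixon's criterion, where chance gives about 1 in 20. For the transcript of 2536 bases control 3-7 was at 9.77 CPM and the next control at 7.12 CPM. For the transcript of 3706 bases control 3-4 was at 16.3 CPM and the next at 13.2 CPM.

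The response at 6 h differed from that at 1 h, by edgeR's interaction contrast, in 21 of the 22 named transcripts. In log2 units, the 6 h response of the rises minus their 1 h response was 3.67 for 5040 bases (adjusted p = 0.00321), 5.20 for 2536 bases (4.93e-06), 4.66 for 5788 bases (4.1e-06), -1.54 for 3277 bases (0.0445) and 2.91 for 5068 bases (0.00474). It was 3.87 for 2317 bases (edgeR adjusted p = 0.00222), 3.88 for 2088 bases (0.000553), 2.52 for 6537 bases (0.00153), 2.96 for 5720 bases (0.00141), 2.37 for 4268 bases (0.0121) and 2.83 for 3706 bases (0.000146). For the falls it was -7.44 for 10071 bases (edgeR adjusted p = 0.000885), -3.67 for 1815 bases (1.78e-06), -2.92 for 3610 bases (0.000344), -2.73 for 3143 bases (2.76e-06) and -2.39 for 8805 bases (0.000591). The remaining falls had -1.92 for 1060 bases (edgeR adjusted p = 0.0113), -2.76 for 5879 bases (1.88e-05), -2.93 for 6841 bases (0.00135), -2.66 for 2928 bases (1.35e-06) and -2.38 for 3988 bases (4.65e-06). The transcripts of 4268 and 6841 bases were too low to be tested at 1 h alone. With the code as a block 20 of the 22 differences passed, and that of 3277 bases did not (edgeR adjusted p = 0.0587). All were chosen on the 6 h libraries, which also enter this contrast. The controls of both times enter it too, and for several rises the 7 h controls lay below those at rest.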

How the results depend on the processing

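The counts of 2808 higher and 2283 lower transcripts moved most with the number of libraries and the model. DESeq2 called 4115 and 3798. Leaving out 1 library gave 1663 to 2253 higher and 1335 to 1791 lower: 1410 lower without control 3-4, 1663 and 1391 without KCl 3-7, and 1720 and 1335 without KCl 4-2. The 3 shared codes with no block are the same libraries as without control 3-4 (1410 lower). With the code as a replicate block, which leaves 2 residual degrees of freedom, 610 were higher and 202 lower. Deviations of same-code libraries correlated at 0.0586, 0.068 and 0.0285. Each library correlated best with its own code, a hint of pairing, but each value was low, so the fit without a block was kept. In the 1 h groups the same-code values ran from 0.00253 to 0.0737. There KCl libraries 3-4, 3-7 and 4-2 correlated best with resting libraries 3-7, 3-4 and 4-3, at 0.0446, 0.0799 and 0.05. Each of these is another code with the same first number. KCl libraries 4-3 and 4-4 correlated best with their own code. In the 6 h comparison the first number as a covariate gave 2577 higher and 1871 lower. The block gave 436 higher and 220 lower at 1 h, in place of 806 and 632, and 3337 differences between the responses in place of 4052. Codes 4-2 and 4-4 alone gave 0 and 0 in edgeR (6553 at an unadjusted p under 0.05; DESeq2 2422 and 1546). For the 22 named transcripts 381 of 406 alternatives passed the threshold in the same direction and 0 reversed. Of the 25 that did not pass, 22 were in codes 4-2 and 4-4 alone and 3 under the block (3277 bases, adjusted p = 0.055; 2317 bases, 0.0673; 1060 bases, 0.0584). Leaving out a library kept 154 of 154, at adjusted p of 0.000482 to 0.0263. The named transcripts were chosen for their size of change or small p in these same libraries, so their stability was largely set by that choice. Over all calls, leaving out 1 library kept 1603 to 2059 of the 2808 higher and 1144 to 1518 of the 2283 lower transcripts. A minimum of 10 counts in every library left 12 named transcripts untested. For the difference in the share of counts in long transcripts, 2 kb gave 2.066 and 8 kb 0.9729 points. Taken over the 500 most abundant transcripts the difference was 1.718 points (adjusted p = 0.314) in place of -0.5261 for 100, and leaving out 1 library gave -1.396 to 0.3221. Paired by code (replicate block), the measures were 2.127, -0.3694 and -3370. The cause of these moves was not tested. In the class of 1.25 to 3.69 CPM the median SE was 0.634 log2 units, so small changes were not detectable there.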

Other observations

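The resting wild-type library of code 4-3, a code with no library in the 6 h experiment, had the highest level of the 5 resting libraries in 39.1% of the transcripts that were higher after 6 h of KCl and tested at 1 h. The other resting libraries were highest in 11% to 19.7% of them. Among transcripts called at neither time it was highest in 20.6%. The 1 h KCl library of code 4-3 was the highest of 5 in 30.4% of the same transcripts. For the transcript of 5068 bases, resting library 4-3 had 510 CPM and the other resting libraries 83.3 to 214 CPM. For the transcript of 5040 bases it had 39.0 CPM and the others 5.15 to 17.2 CPM.

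The third most abundant transcript, of 1824 bases, had 10100 ± 1670 CPM in the 7 h controls (SD, n = 4). After KCl it had 7160 ± 1020 CPM (SD, n = 3), and the difference did not pass the test (edgeR adjusted p = 0.0787).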
